A study of Sus scrofa with 6 samples.

Results

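The 20 circular RNAs described here come from a single intron of PTBP1, the gene of polypyrimidine tract binding protein 1 (ENSSSCG00000013421), in boar testis. They are all rows that the deposited circRNA table assigns to PTBP1 and calls ciRNA, the class of circRNAs made of intron sequence, and they are 20 of 1798 intronic circRNAs among 4350 circRNAs in the table analysed here. PTBP1 was picked out because no other host gene had as many intronic circRNAs, so that this number is a description and was not tested. GBF1 came next with 8, followed by MBNL1, UBQLN4 and PTPRS with 7 each.

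The testes came from 3 Landrace boars of 30 days (Piglet-D30) and from 3 sexually mature Landrace boars of 210 days with normal spermatogenesis (Adult-D210). One testis of each boar gave 1 library of whole tissue, with no treatment and no transgene. Ribosomal RNA was depleted, linear RNA was digested with RNase R, and the value of a circRNA is the number of reads that span its back-splice junction. The libraries held 37364412 to 49179118 mapped reads and 683 to 1461 intronic back-splice reads. Since linear RNA was removed, the tissue could not be checked by marker mRNAs. Among the intronic circRNAs, those of CYP17A1, a steroid enzyme of Leydig cells, had 11, 6 and 4 reads in the piglets and 12, 13 and 10 in the adults, and those of the germ cell gene MOV10L1 had 28, 13 and 9 against 24, 1 and 1. Both genes were picked after their values were seen, so they do not measure the cells of a library. By histology, the paper found spermatogonia as the only germ cells of the piglets and mature sperm in the adults. In whole tissue, fewer cells of a type and less RNA per cell cannot be told apart.

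An intron leaves a transcript as a lariat, a loop closed between the first base of the intron and an inner base, the branch point, which normally lies a short way before the 3′ end of the intron. Most lariats are opened and degraded, and those that lose their tail but keep the loop are seen as intronic circRNAs, which begin at the 5′ end of the intron and stop near the branch point. PTBP1 itself binds pyrimidine-rich RNA in introns and mostly represses the use of nearby exons, its own included. Its relative PTBP2 takes over in neurons and is needed for spermatogenesis in mice.

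All 20 circRNAs lay on the minus strand of chromosome 2 in the Sscrofa10.2 assembly, in an intron of transcript ENSSSCT00000014665 from 78363023 to 78364055, counted from 1, with a length of 1033 nt. Every one of them began at base 78364055, the first base of the intron in the direction of transcription, and they differed only in the other end. That end fell on 20 of the 23 positions from 78363335 to 78363357, so that the loops measured 699 to 721 nt with a median of 710.5 nt. The positions at 78363336, 78363347 and 78363355 had no circRNA. Measured from the 3′ end of the intron, the varying end lay 312 to 334 nt upstream, with a median of 322.5 nt, and the loops held 67.7% to 69.8% of the intron. The table listed no circRNA of another gene within 100 kb and no exonic circRNA on chromosome 2, so exonic circRNAs of PTBP1 were not analysed here. The paper reports many more circRNAs than this table holds, most of them exonic, and places them on all chromosomes. The empty surroundings of the intron are therefore a trait of a partial table and say nothing about the locus.

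A shared first base is no mark of PTBP1, since all 1798 intronic circRNAs began at the 5′ end of their listed intron. The distance to the 3′ end, which played no part in the choice of the gene, did set the intron apart from most. Among the 1778 other intronic circRNAs the median distance was 20 nt, with quartiles at 1.0 and 29.0 nt, and 414 of them (23.3%) reached the last base of the intron. A distance of more than 100 nt was found for 221 (12.4%), and one at least as long as the shortest of PTBP1 for 164 (9.22%). The loops of the other genes filled a median of 96.6% of their intron and spanned a median of 412.0 nt. These are descriptions over circRNAs that share introns, and no test was made.

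**Figure D1:**
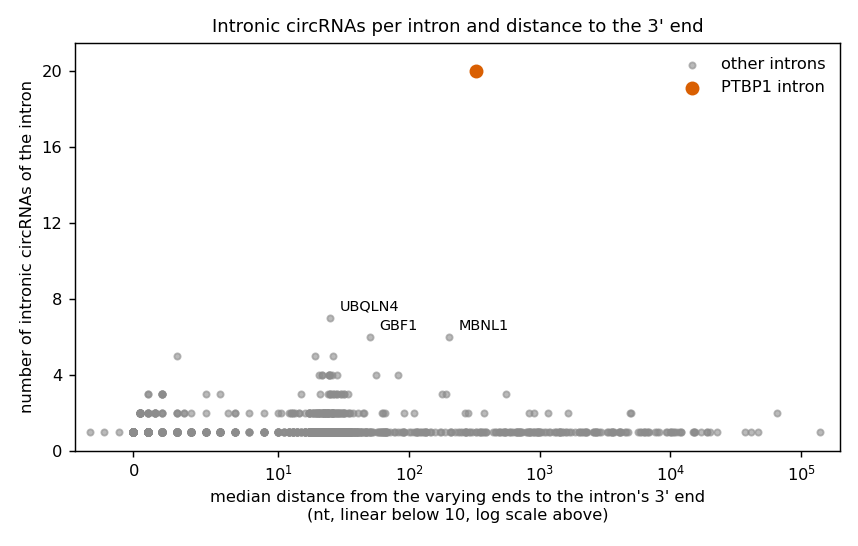
Number of intronic circRNAs of each of the 1512 introns (vertical axis) against the median distance of their varying ends from the 3′ end of the intron in nt (horizontal axis, linear below 10 nt and logarithmic above). The PTBP1 intron stands at 20 circRNAs and 322.5 nt, whereas the other introns have at most 7.

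Most introns gave a single loop. Of the 1512 introns with an intronic circRNA, 1316 had 1 and 18 had at least 4, the PTBP1 intron among them. In the 17 others with at least 4, the varying ends covered 4 to 110 nt with a median of 9.0 nt, against 23 nt in PTBP1. A single loop held 28.6% to 86.8% of the reads of those introns, with a median of 60.0%, whereas the leading loop of PTBP1 held 19.0%. The inverse Simpson index, which counts how many equally abundant loops would give the same evenness, was 11.03 for PTBP1 and 1.32 to 4.78 in the 17 others. Evenness and the number of loops are bound together, so this spread is not apart from the choice of the gene.

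MBNL1 was the nearest in form. MBNL1 binds RNA and controls splicing in muscle and other tissues, and it was on the list of splicing regulators. Of its 7 intronic circRNAs, 6 came from 1 intron, with varying ends 201 to 217 nt from the 3′ end. No other of the 17 introns had all its ends more than 100 nt away. Over all 1511 other introns, also those with fewer loops, 194 (12.8%) had all their ends that far away. The 8 loops of GBF1, which acts in vesicle transport, came from 3 introns, and the 6 of its main intron ended 0 to 55 nt from the 3′ end. The 7 of UBQLN4, a ubiquilin, shared 1 intron and ended at 20 to 35 nt, and those of PTPRS, a receptor phosphatase, were spread over 5 introns.

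Over the 6 libraries the 20 circRNAs had 174 back-splice reads, 105 from the piglets and 69 from the adults, which was 2.76% of all intronic reads. Only 2 host genes had more intronic reads, ENSSSCG00000030707 with 809 and KIAA0355 with 179, each from 4 circRNAs. The reads per circRNA came to 202 and 44.8 in these genes and to 8.70 in PTBP1. PTBP1 is thus among the hosts with the most intronic reads, but divided among many listed loops. A loop here is an end position as the table lists it, and neighbouring ends are mostly 1 nt apart. When ends within 5 nt were joined, the loops found in both groups became 1. Whether each listed end is a molecule of its own was not tested.

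The most abundant loop was ciRNA228, which ended 317 nt from the 3′ end of the intron (716 nt long). It had 11, 8 and 5 reads in Piglet-D30 replicates 1 to 3 and 0, 6 and 3 reads in Adult-D210 replicates 1 to 3. All piglet libraries held it, and the groups overlapped, since Adult-D210 replicate 2 lay above Piglet-D30 replicate 3. Its log2 fold change, Adult-D210 over Piglet-D30, was −0.88 with a standard error of 1.16 (adjusted p = 0.731, quasi-likelihood test of edgeR). That value was scaled by the back-splice totals of the table. Scaled by mapped reads it was −1.49 with a standard error of 1.26 (adjusted p = 0.559, same test).

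Next in reads came ciRNA230 and ciRNA231, with 20 reads each. For ciRNA230, 320 nt from the 3′ end, the piglet libraries had 1, 12 and 0 reads and the adult libraries 0, 2 and 5. For ciRNA231, at 326 nt, the counts were 2, 2 and 4 in the piglets and 1, 3 and 8 in the adults. The first was carried mainly by Piglet-D30 replicate 2, whereas the second was found in all 6 libraries and was highest in Adult-D210 replicate 3. In both the groups overlapped. These 3 loops held 73 of the 174 reads (42.0%).

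Only ciRNA227 was also present in every library. It ended at 316 nt, with 1, 2 and 1 reads in the piglets and 3, 3 and 1 in the adults, so that the lowest adult library was level with the lowest piglet libraries. ciRNA232, at 333 nt, had 2, 2 and 1 reads in the piglets and 1, 3 and 0 in the adults and was missed in 1 library. Such small numbers carry wide counting error, since a count of 0 in a library still allows up to 3 reads, or 0.0610 to 0.0803 RPM (reads per 1000000 mapped reads).

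Further loops with 10 or more reads were ciRNA622 and ciRNA623 on the 3′ side and ciRNA628 on the 5′ side. The counts of ciRNA622 were 0, 6 and 3 in the piglets and 1, 0 and 2 in the adults. Those of ciRNA623 were 0, 8 and 1 against 0, 0 and 1, and those of ciRNA628 were 0, 5 and 0 against 1, 0 and 5. Each was absent from Piglet-D30 replicate 1, and Piglet-D30 replicate 2 held the most or shared the most reads of all 3.

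The remaining 13 loops had 1 to 9 reads each. Some were concentrated in a single library: ciRNA1001 had 5 reads, all in Piglet-D30 replicate 3, and ciRNA1711 and ciRNA1713 had 2 each, all in Adult-D210 replicate 3. Others were shared, such as ciRNA629, at the far end of the window (334 nt), with 0, 1 and 0 reads in the piglets and 2, 5 and 0 in the adults. In all, 7 loops were found in 1 library, 1 in 2 libraries, 6 in 3, 2 in 4, 2 in 5 and 2 in all 6, and 4 loops rested on 1 read.

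Both ages used 16 loops each, 12 of them in common, while 4 were found in Piglet-D30 alone and 4 in Adult-D210 alone. The 12 shared loops held 155 of the 174 reads (89.1%). The 8 others had 19 reads together. No share over all intronic circRNAs is given beside these counts, so they are a description and do not mark PTBP1 out. The largest of them was ciRNA624, at 322 nt, with 0, 2 and 4 reads in the piglets and 0 in each adult library, and each of the 3 adult counts of 0 still allows up to 3 reads.

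**Figure D2:**
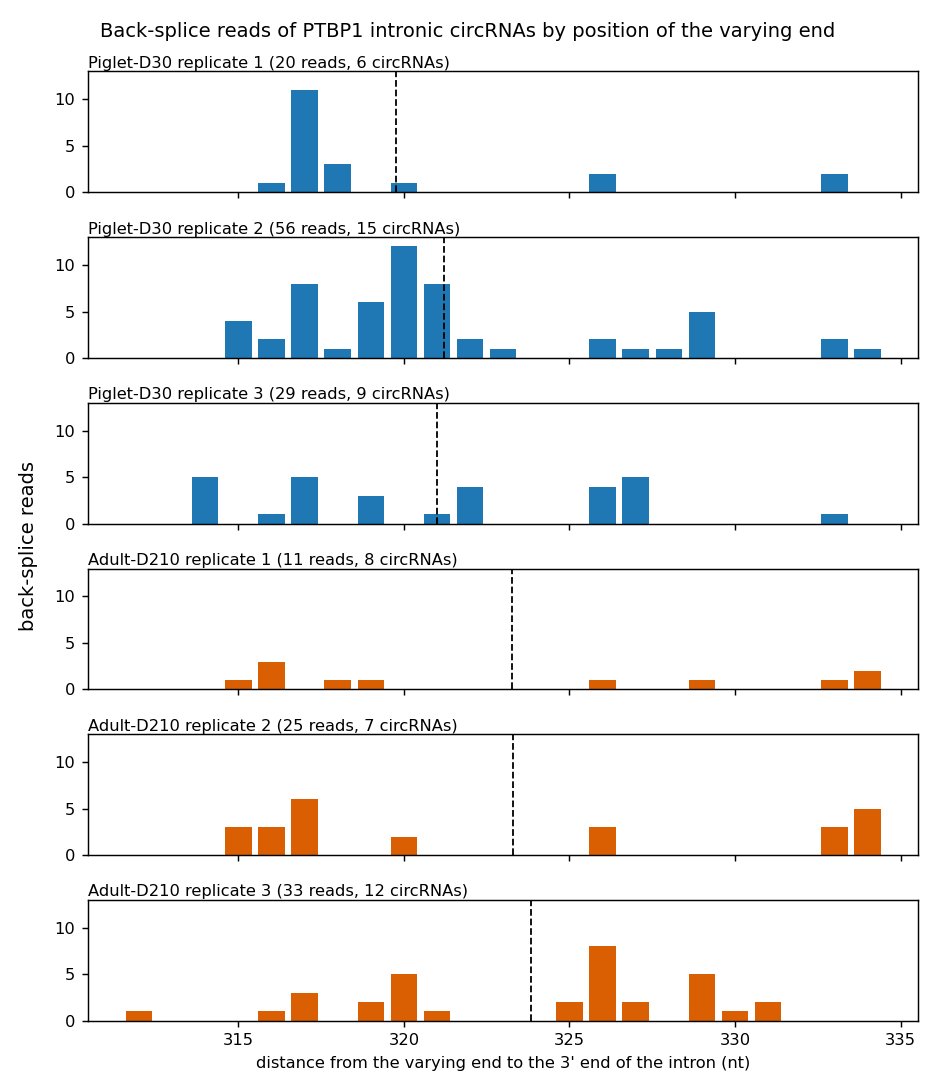
Back-splice reads (vertical axes) of each PTBP1 intronic circRNA by the distance of its varying end from the 3′ end of the intron in nt (horizontal axis), 1 panel per library. Dashed lines mark the mean distance of the reads of a library, which is 319.8 to 321.2 nt in the 3 Piglet-D30 libraries and 323.3 to 323.8 nt in the 3 Adult-D210 libraries.

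The loops of each library covered nearly the whole window. The smallest distance found was 312 to 316 nt and the largest 331 to 334 nt in every library, although the libraries held 11 to 56 PTBP1 reads. The leading loop differed between libraries. It was ciRNA228 in Piglet-D30 replicate 1, with 11 of 20 reads (55.0%, 95% exact binomial interval 31.5 to 76.9), and in Adult-D210 replicate 2, with 6 of 25 (24.0%, 9.36 to 45.1). In Piglet-D30 replicate 2 it was ciRNA230 with 12 of 56 (21.4%, 11.6 to 34.4), and in Adult-D210 replicate 3 ciRNA231 with 8 of 33 (24.2%, 11.1 to 42.3). In Piglet-D30 replicate 3, 3 loops had 5 of 29 reads each, and in Adult-D210 replicate 1 the lead of ciRNA227 was 3 of 11 reads. The intervals cover counting error only, because the reads carry no molecular identifiers and may be copies of 1 molecule.

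The position of the ends was then compared between the ages, a comparison added after the counts had been seen. The mean distance of the reads from the 3′ end of the intron was 319.8, 321.2 and 321.0 nt in Piglet-D30 replicates 1 to 3 and 323.3, 323.3 and 323.8 nt in Adult-D210 replicates 1 to 3. Every adult library thus lay above every piglet library, by 2.82 nt between the group means of 320.6 ± 0.785 nt and 323.5 ± 0.330 nt (SD, n = 3 each; exact permutation test, two-sided p = 0.1, the smallest that 3 boars against 3 allow). With each detected loop counted once in place of each read, the difference was 0.989 nt and the groups overlapped (exact permutation test, two-sided p = 0.3).

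The empty position at 324 nt parts the window into 11 loops with 112 reads on the side of the 3′ end and 9 loops with 62 reads on the side of the 5′ end. The first set held 80.0%, 78.6% and 65.5% of the PTBP1 reads in Piglet-D30 replicates 1 to 3 and 54.5%, 56.0% and 39.4% in Adult-D210 replicates 1 to 3. The groups did not overlap in this share, which was drawn from the same reads as the mean distance and cut at a point chosen from the data, and so was not tested. In Adult-D210 replicate 1 it rests on 6 of 11 reads.

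The total level of the PTBP1 loops did not separate the ages. Scaled to mapped reads, the 20, 56 and 29 reads of Piglet-D30 replicates 1 to 3 came to 0.535, 1.28 and 0.668 RPM, and the 11, 25 and 33 reads of Adult-D210 replicates 1 to 3 to 0.224, 0.618 and 0.676. Piglet-D30 replicate 2 was the highest and Adult-D210 replicate 1 the lowest, and the other 4 libraries were mixed between the groups. The means were 0.829 ± 0.399 and 0.506 ± 0.246 RPM (SD, n = 3 each), a difference of −0.32 that was smaller than the spread among the piglets (exact permutation test, two-sided p = 0.5). Without Piglet-D30 replicate 2 the difference was −0.096, and without Adult-D210 replicate 1 it was −0.18.

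All intronic circRNAs together came to 30.6 ± 8.07 RPM in Piglet-D30 and 18.4 ± 4.17 in Adult-D210 (SD, n = 3 each). Every piglet library, with at least 23.1 RPM, lay above every adult library, with at most 22.3. The exact permutation test gave a two-sided p = 0.1, the smallest that 3 boars against 3 allow. The share of PTBP1 in the intronic reads of a library was 1.37%, 4.32% and 2.90% for the piglets and 1.0%, 3.28% and 4.83% for the adults. On this scale the adult mean was the higher, by 0.174 percentage points (exact permutation test, two-sided p = 0.8), so the direction depended on what the reads were set against.

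**Figure D3:**
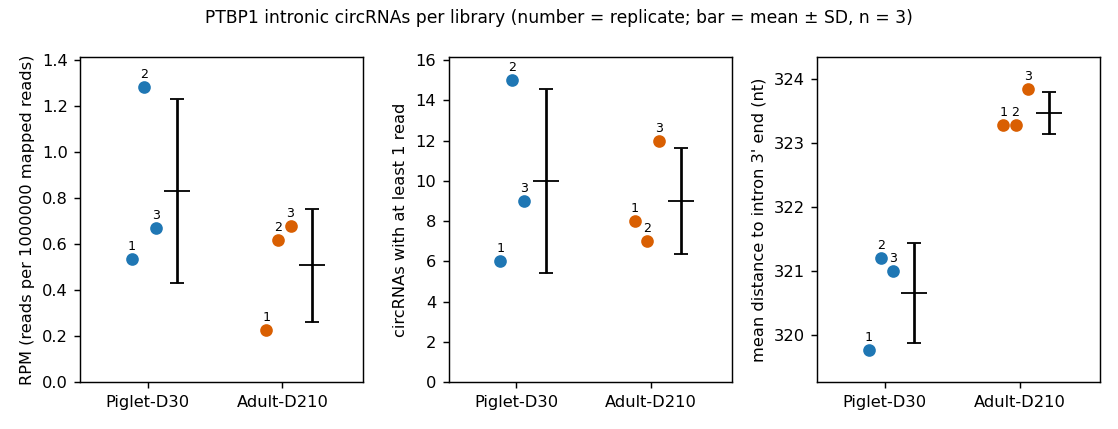
PTBP1 intronic circRNAs in each library as RPM, reads per 1000000 mapped reads (left), as the number of loops with at least 1 read (middle) and as the mean distance of the reads from the 3′ end of the intron in nt (right, axis not from 0). Points are libraries with their replicate number and bars are mean ± SD of 3 boars. The groups overlap in the left and middle panels and are apart by 2.82 nt between means in the right panel.

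The number of loops detected was 6, 15 and 9 in Piglet-D30 replicates 1 to 3 and 8, 7 and 12 in Adult-D210 replicates 1 to 3. The group means of 10 ± 4.58 and 9 ± 2.65 (SD, n = 3 each) differed by less than the spread between libraries (exact permutation test, two-sided p = 0.8). Without Piglet-D30 replicate 2, the library with the most PTBP1 reads, the adult mean was higher by 1.5 loops. Adult-D210 replicate 1 had only 11 reads for its 8 loops, 6 of which were seen once, whereas no loop of Adult-D210 replicate 2 rested on 1 read.

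In a fit across the 82 host genes with at least 10 intronic reads, scaled by mapped reads, PTBP1 had a log2 fold change of −0.71 with a standard error of 0.80 (adjusted p = 0.747, quasi-likelihood test of edgeR). The median of all 82 was −0.94, so that PTBP1 stood 0.23 above it, and 44 of the 82 had a lower value. A gene was called when its adjusted p was under 0.05 and its log2 fold change 1 or more in size. By edgeR 0 of the 82 (0%) were called, 16 had an unadjusted p under 0.05, and DESeq2 called 2, PTBP1 not among them. Scaled by intronic totals without further normalization, the log2 fold change of PTBP1 was 0.071.

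The single loops were tested among all 1341 circRNAs with at least 10 reads, of which 117 (8.72%) were called. Of the 20 loops, 7 reached 10 reads, with 117 of the 174 reads, and the 13 others were too sparse to test. None of the 7 was called by edgeR or by DESeq2, which gave no adjusted p for 5 of them, and 0 of the 7 had an unadjusted p under 0.05 by edgeR. Their log2 fold changes were −2.55 (ciRNA623), −1.27 (ciRNA622), −0.88 (ciRNA228), −0.48 (ciRNA230), 0.56 (ciRNA628), 0.99 (ciRNA231) and 1.01 (ciRNA227), and their median was −0.48 beside −0.42 over all 1341. The 117 calls were 43 higher and 74 lower in Adult-D210. Scaled by mapped reads in place of the table's totals, 78 circRNAs were called, 7 higher and 71 lower, the median over all 1341 was −0.92, and the middle value of the 7 loops was the −0.96 of ciRNA230. On that scale all 7 loops had lower values, from −2.87 (ciRNA623) to 0.64 (ciRNA227), and again 0 of the 7 were called. The 2552 exonic rows all have a read in Piglet-D30 replicate 1, so the medians and calls over all 1341 are no even background for the loops. The log2 fold changes of the loops on the table's totals carry the same limit. When intronic circRNAs were fitted alone, 2 of 71 were called, both higher in Adult-D210 and neither a PTBP1 loop, and the median was −0.35. In the first fit the standard errors, recovered from the F statistic of the test, ran from 1.16 to 1.98 on the log2 scale. A log2 fold change of 1 in any of these loops would thus not have stood out from the spread between libraries.

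**Figure D4:**
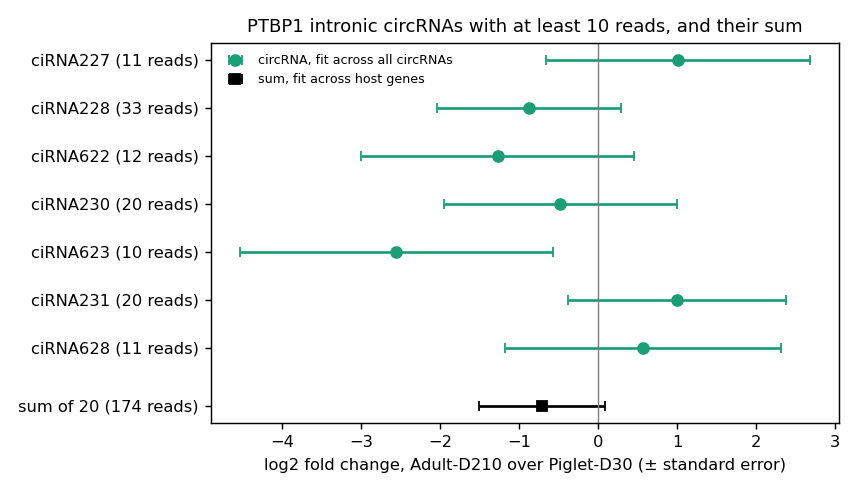
Log2 fold change, Adult-D210 over Piglet-D30, with standard error (horizontal axis) of the 7 PTBP1 loops with at least 10 reads, in order of distance from the 3′ end of the intron, and of the sum of all 20. Loops were scaled by the back-splice totals of the table and the sum by mapped reads. The 4 values below 0 and 3 above 0 of the loops and the −0.71 of the sum all have adjusted p-values of at least 0.492.

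The other genes of splicing control were looked up from a list of 66 regulators. Of these, 8 had an intronic circRNA, 23 in all with 65 reads, and PTBP2 and PTBP3 had none. MBNL1 alone had the 10 reads needed for the test, with 1, 13 and 6 reads in the piglets and 0, 2 and 8 in the adults, and was not called (log2 fold change −1.09 with a standard error of 1.33, adjusted p = 0.770 in edgeR). The 7 others, HNRNPA1, HNRNPU, SRSF1, SF1, RBM5, RBM10 and MBNL3, had 2 to 8 reads. The median distance to the 3′ end over the 23 circRNAs was 16.0 nt. Besides MBNL1, only RBM10, with a single circRNA at 269 nt, had all its ends more than 100 nt away. Of the 4 loops of MBNL3, a relative of MBNL1, 3 came from 1 intron, with 4 reads and a median distance of 192.0 nt, and the other, of 1 read, came from another intron and ended at 6 nt.

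Among the 36 other host genes with at least 20 intronic reads, the profile over the 6 libraries most like that of PTBP1 belonged to ENSSSCG00000005480 (Pearson r = 0.962 on log2 RPM), followed by MBNL1 (r = 0.909) and DENND4B (r = 0.657). Like PTBP1, the first and MBNL1 had the most reads in Piglet-D30 replicate 2 and the fewest in Adult-D210 replicate 1. ENSSSCG00000005480 had 1, 8 and 4 reads in the piglets and 0, 3 and 4 in the adults, so both correlations rest on 20 and 30 reads. Both genes had 0 reads in Adult-D210 replicate 1, so that point is set by the pseudocount of 0.05 RPM.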

How the data were processed

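Testis RNA of 3 Piglet-D30 and 3 Adult-D210 boars was analysed, 1 library per boar, with groups taken from the sample titles. After trimming with Cutadapt 1.10, the authors mapped reads with TopHat2 2.0.4 to the pig genome (Ensembl 88, Sscrofa10.2 per the submitters' processing notes), called back-splice reads with TopHat-Fusion 2.1.0 and CIRCExplorer2 2.2.6, and deposited raw counts per circRNA and library. The deposited SRPBM signal (count per 1000000000 mapped reads and per base of the 150 nt reads) was used only to recover mapped reads. In the intron column of the table the start is counted from 0, and it was raised by 1.

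Members are all rows with host gene PTBP1 and type ciRNA. The members, the list of splicing regulators and the comparisons were chosen with earlier results of these data known. Reads were summed per library and compared with exact permutation tests (SciPy 1.17.1). Counts were tested with edgeR 4.0.16 (robust quasi-likelihood fit, Benjamini-Hochberg adjustment, at least 10 reads over the 6 libraries). This test gives no standard error. Those printed with edgeR values are the size of the log2 fold change divided by the square root of the F statistic. The circRNA fit used TMM on the table's totals, and the fit of reads summed per host gene used mapped reads, because the 2552 exonic rows all have a read in Piglet-D30 replicate 1, so that totals of the table are not library depths. On simulated data, of the changed features that passed the read limit, the circRNA fit (1332 tested) called 13 of 42 with a simulated difference of 3 on the log2 scale and 33 of 58 with one of 6. The host gene fit (142 tested, against 82 in the data) called 1 of 10 and 11 of 48. Of all calls, 2 of 48 in the circRNA fit and 0 of 12 in the host gene fit were false. The sign was right for each changed feature tested. Sparse features could pass the read limit through the group in which they were raised, so a right sign was largely given by that limit. DESeq2 1.42.0 was an alternative.

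Replicates differed by more than counting noise in every pair (chi-square per degree of freedom 3.87 to 4.97). The named genes are PTBP1, the host genes with the next most intronic circRNAs (a tie at 7 brought in PTPRS), the 3 with the most similar profile (pseudocount 0.05 RPM) and the listed regulators. GBF1, MBNL1 and UBQLN4 fall under the second rule, and CYP17A1, MOV10L1, KIAA0355 and ENSSSCG00000030707 were chosen after their values were seen.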

Additional observations from a re-analysis of the deposited data

How the results depend on the processing

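No call on PTBP1 or its loops changed under any alternative run, and in none was one past the threshold. The sign of the difference in reads turned when it was taken per 1000000 intronic reads (1738 higher in Adult-D210), that in loops detected turned when counted per 10 PTBP1 reads (1.64 higher), and the host gene log2 fold change turned on intronic totals without TMM (0.071). Leaving out 1 library each gave −0.47 to −0.096 RPM, −3.0 to 1.5 loops and 2.37 to 3.09 nt in mean distance. The log2 fold changes were then −0.98 to −0.25 for the PTBP1 sum. For the loops they were −4.71 to −0.15 (ciRNA623), −2.37 to −0.29 (ciRNA622), −1.87 to −0.25 (ciRNA228) and −1.75 to 2.59 (ciRNA230). The others had −1.55 to 4.39 (ciRNA628), −0.12 to 1.52 (ciRNA231) and 0.68 to 1.47 (ciRNA227). The loops found in both groups became 1 when ends within 5 nt were joined, and the median distance became 320.0 nt when weighted by reads. The host genes called, 0 at first, became 3 with intronic totals with or without TMM, 1 with table totals, 2 with DESeq2, 1 with at least 20 reads and 0 to 8 with 1 library left out, the 8 without Adult-D210 replicate 1. The circRNAs called, 117 at first, became 78 on mapped reads, 2 of 71 when intronic circRNAs were fitted alone and 71 to 94 with 1 library left out, with 71 without Adult-D210 replicate 1 and 72 without Adult-D210 replicate 2. The causes were not tested. With 5 reads as the limit, 14 loops were tested and 0 called.

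Same-numbered libraries of the groups did not deviate together (r = 0.0661, −0.0161 and −0.025), so the numbers were not taken as pairs. With a replicate block, 2 host genes and 91 circRNAs were called, the log2 fold change of PTBP1 was −0.74 (adjusted p = 0.689, edgeR), and sign-flip tests of the 3 differences gave exact p-values of 0.5 for reads, 1.0 for loops and 0.25 for mean distance, the smallest possible. Depth is low, as 4 of the 20 loops rest on 1 read and 13 have under 10.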
